A study of Mus musculus with 48 samples.

Results

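The 10 genes Fos, Fosb, Fosl2, Jun, Junb, Jund, Egr1, Atf3, Ier2 and Ier3 encode AP-1 subunits and other products of the immediate early response. They were taken by symbol from the tables of unique molecular identifiers (UMIs), where they are 10 of 20300 genes in the mixed-cell experiment and 10 of 14363 genes in the CD11b positive experiment, and all 10 were found in both. The cells came from GL261 glioblastoma (GB), a mouse glioma line that was injected into the striatum of male mice of the strain C57BL/6 at an age of 6 weeks. Before implantation the GL261 cells had received, by retrovirus and puromycin selection, a short hairpin RNA against Selp (shSELP) or a negative-control hairpin (shNC), so in every group the host cells carried no hairpin. The mix was sequenced as 2 libraries of each group and the CD11b positive cells as 1 library of each. The labels date the mix to day 16 and the CD11b positive cells to day 21, while the study's methods name day 17 for both. All mice carried a tumor, and brains were pooled by group (3 brains in the methods). In the mix, bead-separated CD11b positive, CD45 positive and remaining cells were put together in equal amounts, so its cell numbers are those of the mixing. Neither the labels nor the methods state whether the pair of libraries in a group had brain pools of their own, and every p-value below measures spread between libraries only. The brains were all dissociated with warm enzymes, and no library was made from cells prepared another way. A response to dissociation and the level in the tumor therefore cannot be told apart, within a class or between classes. Bead steps also differed between CD11b positive, CD45 positive and remaining cells of the mix, so class and handling cannot be told apart.

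AP-1 is a dimer of basic leucine zipper proteins, a Jun protein paired with another Jun or with a Fos or ATF protein, and it binds DNA at enhancers and promoters. Its genes, with Egr1 and the Ier genes, are transcribed within minutes of a signal through MAP kinases, without new protein synthesis, and most of their messages are short-lived. In brain tissue they are well known to be induced while cells are being digested out of the tissue, and in glioblastoma AP-1 is also a regulator of the mesenchymal state and of the response to stress.

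The mix held, library by library, 2289 and 2297 cells with shNC and 2293 and 2293 with shSELP. The total counts were 22945972 and 22626413 UMIs with shNC and 17398121 and 25589350 with shSELP. The median UMIs per cell were 9015 and 7579 with shNC and 5887 and 9388 with shSELP. Without the cells that had fewer than 500 genes there were 2183 and 2179 cells with shNC and 2190 and 2174 with shSELP. Cell classes were gated on 8 fixed markers each, none of them a member: a cell needed at least 3 markers of its class and no other class with more than a 0.5 share of that number, and is called macrophage-like, microglia-like and so on. Ungated cells made up 22.7% to 26.9% of a library. Barcodes shared by libraries numbered 5 in the mix and 3 in the CD11b positive cells.

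Macrophage-like cells numbered 769 and 674 with shNC and 455 and 735 with shSELP, and T cell-like cells 439 and 440 with shNC and 404 and 440 with shSELP. The other classes were smaller: microglia-like cells numbered 61 and 71 with shNC and 240 and 104 with shSELP, and tumor-like cells 266 and 177 with shNC and 51 and 50 with shSELP. NK cell-like cells numbered 35 and 85 with shNC and 29 and 48 with shSELP, and dendritic cell-like cells 34 and 51 with shNC and 27 and 64 with shSELP. The library shSELP 1 stands apart from the other 3, with the lowest depth and 331 endothelial-like cells, against 19, 29 and 69 in shNC 1, shNC 2 and shSELP 2. A class was tested where each library held at least 20 cells, which gave 6 classes. The endothelial-like class was added with a minimum of 15 cells after its numbers were seen.

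Levels are in CPM, the UMIs of a gene in every 1000000 UMIs of a class in a library, with the libraries of a group in the order 1 and 2. Selp, the target of the hairpin, had 17 and 25 UMIs with shNC and 21 and 21 with shSELP over all kept cells, or 0.743 and 1.11 CPM with shNC and 1.21 and 0.823 with shSELP. In tumor-like cells, the cells that carry the hairpin, it had 1 and 1 UMIs with shNC and 0 and 0 with shSELP. The counts of 0 allow up to 4.48 and 5.69 CPM in shSELP 1 and shSELP 2 (3 counts), above the shNC values of 0.244 and 0.358. The knockdown was therefore not detectable at this depth, and the counts of Selp do not check the label. In endothelial-like cells Selp had 8 and 12 UMIs with shNC and 0 and 4 with shSELP, or 75.8 and 69.8 CPM with shNC and 0 and 9.20 with shSELP.

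Each class was compared with the mean of the other 5 tested classes in 1 joint edgeR quasi-likelihood fit with library as a block, and p-values were adjusted by the Benjamini-Hochberg method over all 9632 genes tested. The endothelial-like class was compared in a separate fit of 7 classes and 9550 genes. No member was used to gate a cell. A called contrast of a class with the other classes had its direction in 4 of 4 libraries unless another number is given.

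Of the 7 classes, Fos, the founding partner of Jun in the dimer, was highest in endothelial-like cells. There it was at 4408 and 5337 CPM with shNC and 6166 and 6846 with shSELP. In tumor-like cells it was at 2904 and 3078 CPM with shNC and 1867 and 2178 with shSELP. In T cell-like cells, the lowest class, it was at 174 and 135 CPM with shNC and 103 and 122 with shSELP. Every endothelial-like value lay above every tumor-like value, and every tumor-like value above the 990.4 to 1640.1 CPM of microglia-like cells. The ratio of the highest to the lowest class mean was 42.6. Macrophage-like cells, at 789 ± 87.8 CPM (SD, n = 4 libraries), and NK cell-like cells, at 490.4 ± 203 CPM, overlapped, as did dendritic cell-like cells (213 ± 89.6 CPM) and T cell-like cells (134 ± 30.2 CPM). Against the other classes Fos was called higher in tumor-like cells (log2 fold change 2.11, standard error 0.14, edgeR adjusted p 9.87e-15, the same direction in 4 of 4 libraries), in microglia-like cells (log2 fold change 1.77, edgeR adjusted p 2.48e-12) and in macrophage-like cells (log2 fold change 0.91, edgeR adjusted p 2.80e-06). It was called lower in T cell-like cells (log2 fold change -2.63, standard error 0.19, edgeR adjusted p 2.73e-13, the same direction in 4 of 4 libraries) and in dendritic cell-like cells (log2 fold change -1.66, edgeR adjusted p 1.98e-08). The NK cell-like call (log2 fold change -0.50, edgeR adjusted p 0.0407) had its direction in 2 of 4 libraries and was lost without shNC 2, shSELP 1 or shSELP 2 (adjusted p 0.209, 0.0642 and 0.188).

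Fosb, another Fos-family subunit, was at 2142 and 2194 CPM with shNC and 3292 and 3253 with shSELP, in endothelial-like cells. In microglia-like cells it was at 374 and 364 CPM with shNC and 586 and 443 with shSELP. In dendritic cell-like cells it was at 124 and 69.8 CPM with shNC and 76.9 and 110.2 with shSELP. The endothelial-like values lay above those of every other class of the 7. Tumor-like cells (512 ± 95.4 CPM) overlapped microglia-like cells, and macrophage-like cells (273 ± 32.3 CPM) overlapped NK cell-like cells (234 ± 56.4 CPM). Fosb was called higher in microglia-like (log2 fold change 1.27, standard error 0.12, edgeR adjusted p 1.69e-10, the same direction in 4 of 4 libraries), tumor-like (log2 fold change 0.93, edgeR adjusted p 5.40e-08) and macrophage-like cells (log2 fold change 0.60, edgeR adjusted p 8.07e-05) and lower in T cell-like (log2 fold change -1.17, edgeR adjusted p 1.39e-08) and dendritic cell-like cells (log2 fold change -1.45, edgeR adjusted p 2.69e-08). Fosl2, the Fos-family subunit also named Fra-2, did not follow this order. It was at 179 and 187 CPM with shNC and 275 and 239.5 with shSELP, in NK cell-like cells, its highest class of the 7. In microglia-like cells it was at 75.5 and 43.4 CPM with shNC and 58.3 and 58.3 with shSELP. Among the 7 classes its means ran from 220.1 CPM in NK cell-like cells to 20.3 CPM in dendritic cell-like cells. Every neighbouring pair of these classes overlapped except microglia-like and dendritic cell-like cells. It was called higher in NK cell-like (log2 fold change 1.58, standard error 0.22, edgeR adjusted p 7.72e-07, the same direction in 4 of 4 libraries), macrophage-like (log2 fold change 1.10, edgeR adjusted p 2.15e-07) and T cell-like cells (log2 fold change 0.48, edgeR adjusted p 0.0133) and lower in dendritic cell-like cells (log2 fold change -2.37, edgeR adjusted p 1.77e-07). Without shNC 2 or shSELP 1 the T cell-like call of Fosl2 was lost (adjusted p 0.051 and 0.0634).

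Jun, the subunit that pairs with itself or with Fos, was at 4181 and 4842 CPM with shNC and 6006 and 7216 with shSELP, in endothelial-like cells. In tumor-like cells it was at 2632 and 2852 CPM with shNC and 1724 and 1808 with shSELP. In macrophage-like cells, its lowest class, it was at 215 and 234 CPM with shNC and 262 and 221 with shSELP. No endothelial-like value of Jun overlapped a tumor-like value, and no macrophage-like value reached the 795 CPM that was lowest among NK cell-like cells. The values of tumor-like and microglia-like cells (1315 ± 422 CPM) overlapped, as did those of dendritic cell-like (309 ± 59.9 CPM) and T cell-like cells (305 ± 20.6 CPM). Every macrophage-like value lay below every T cell-like value. Jun was called higher in tumor-like (log2 fold change 1.83, standard error 0.13, edgeR adjusted p 5.22e-14, the same direction in 4 of 4 libraries), microglia-like (log2 fold change 1.47, edgeR adjusted p 3.11e-11) and NK cell-like cells (log2 fold change 0.51, edgeR adjusted p 0.00998) and lower in macrophage-like (log2 fold change -1.36, standard error 0.15, edgeR adjusted p 6.75e-09, the same direction in 4 of 4 libraries), T cell-like (log2 fold change -1.31, edgeR adjusted p 1.86e-08) and dendritic cell-like cells (log2 fold change -1.15, edgeR adjusted p 1.34e-06). So on the log scale of the fit macrophage-like cells had Fos above the mean of the other classes and Jun below it. The NK cell-like call of Jun was lost without shNC 1 or shSELP 2 (adjusted p 0.0568 and 0.0718).

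Junb, a Jun-family subunit that is a weaker activator than Jun, varied least between the 7 classes. The ratio between the highest and the lowest class mean was 3.07. The smaller classes, pooled over libraries, lay further apart, at 358 CPM in B cell-like and 4980 CPM in mural-like cells. It was at 3233 and 2858 CPM with shNC and 4462 and 5246 with shSELP, in endothelial-like cells. In dendritic cell-like cells it was at 1096 and 1088 CPM with shNC and 1452 and 1513 with shSELP. Each class overlapped its neighbour in the order, from endothelial-like through NK cell-like (2644 ± 406 CPM), microglia-like (1996 ± 299 CPM), tumor-like (1648 ± 324 CPM), T cell-like (1432 ± 179 CPM) and macrophage-like (1388 ± 137 CPM) to dendritic cell-like cells. The largest contrast of the 6 tested classes was in NK cell-like cells (log2 fold change 0.67, standard error 0.11, edgeR adjusted p 2.59e-05, the same direction in 4 of 4 libraries). In tumor-like cells Junb was called lower (log2 fold change -0.41, edgeR adjusted p 0.00306) with its direction in 2 of 4 libraries. The call was lost without shSELP 2 (adjusted p 0.0647), and without TMM scaling the sign turned (log2 fold change 0.01, edgeR adjusted p 0.973). The calls of Junb in T cell-like cells (log2 fold change -0.35, edgeR adjusted p 0.0133) and dendritic cell-like cells (log2 fold change -0.40, edgeR adjusted p 0.00897) were lost without shNC 1 (adjusted p 0.0826 and 0.0544), and the latter also without shNC 2 (adjusted p 0.101). Jund, another Jun-family subunit, was at 1793 and 1371 CPM with shNC and 1869 and 1516 with shSELP, in NK cell-like cells. In macrophage-like cells it was at 306 and 366 CPM with shNC and 484 and 393 with shSELP. All NK cell-like values of Jund lay above all macrophage-like values. Of the 7 classes only endothelial-like cells (2929.5 ± 767 CPM) lay above NK cell-like cells without overlap. Jund was called higher in NK cell-like (log2 fold change 1.09, standard error 0.13, edgeR adjusted p 1.09e-07, the same direction in 4 of 4 libraries) and microglia-like cells (log2 fold change 0.66, edgeR adjusted p 8.48e-05, 3 of 4 libraries) and lower in dendritic cell-like (log2 fold change -1.01, edgeR adjusted p 3.78e-06) and macrophage-like cells (log2 fold change -0.95, standard error 0.14, edgeR adjusted p 1.54e-06, the same direction in 4 of 4 libraries).

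Atf3, a stress-induced basic leucine zipper factor that can pair with Jun, was at 2019 and 2654 CPM with shNC and 2473 and 2154 with shSELP, in endothelial-like cells. In microglia-like cells it was at 1254 and 841 CPM with shNC and 1718 and 1233 with shSELP. In T cell-like cells it was at 51.0 and 74.0 CPM with shNC and 68.9 and 78.8 with shSELP. Among the 7 classes T cell-like values lay below all others, and endothelial-like values above them. Pooled B cell-like cells, too few to test, were lower still, at 47.5 CPM. Macrophage-like (246 ± 36.3 CPM), NK cell-like (245 ± 81.5 CPM) and dendritic cell-like cells (197 ± 62.5 CPM) overlapped. The calls were higher in microglia-like (log2 fold change 2.66, standard error 0.16, edgeR adjusted p 4.32e-15, the same direction in 4 of 4 libraries) and tumor-like cells (log2 fold change 1.31, edgeR adjusted p 8.36e-08) and lower in T cell-like (log2 fold change -2.63, standard error 0.23, edgeR adjusted p 1.91e-11, the same direction in 4 of 4 libraries) and dendritic cell-like cells (log2 fold change -0.72, edgeR adjusted p 0.0114). The dendritic cell-like call of Atf3 was lost without shSELP 2 (adjusted p 0.0537).

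Egr1, a zinc finger factor induced through the same MAP kinases, was at 1239 and 707 CPM with shNC and 1796 and 1356 with shSELP, in microglia-like cells. In tumor-like cells it was at 1254 and 1750.3 CPM with shNC and 1190.5 and 1229 with shSELP. In macrophage-like cells it was at 54.6 and 70.5 CPM with shNC and 73.4 and 58.3 with shSELP. Microglia-like and tumor-like values overlapped and were at 707 CPM or more, while no macrophage-like value passed 73.4 CPM. Macrophage-like cells overlapped T cell-like cells (58.3 ± 10.8 CPM) and dendritic cell-like cells (80.2 ± 38.4 CPM). Of the 7 classes endothelial-like cells were highest (2485 ± 812 CPM). The contrast was 3.34 on the log2 scale in microglia-like cells (standard error 0.15, edgeR adjusted p 2.58e-18) and 2.88 in tumor-like cells (edgeR adjusted p 8.64e-17). It was -1.66 in macrophage-like cells (edgeR adjusted p 1.39e-08), and Egr1 was also called lower in T cell-like (log2 fold change -2.25, edgeR adjusted p 1.17e-10), dendritic cell-like (log2 fold change -1.43, edgeR adjusted p 1.71e-05) and NK cell-like cells (log2 fold change -0.87, edgeR adjusted p 0.0112, 3 of 4 libraries). The NK cell-like call was lost without shNC 2 or shSELP 2 (adjusted p 0.11 and 0.0635).

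Ier2, a nuclear immediate early protein, was at 887 and 1080.4 CPM with shNC and 603 and 918 with shSELP, in tumor-like cells. In dendritic cell-like cells it was at 122 and 214 CPM with shNC and 154 and 194 with shSELP. Tumor-like values overlapped those of NK cell-like cells (702 ± 186 CPM), and both classes lay above dendritic cell-like cells in every library. Ier2 was called higher in tumor-like (log2 fold change 1.17, standard error 0.12, edgeR adjusted p 6.61e-10, the same direction in 4 of 4 libraries) and NK cell-like cells (log2 fold change 1.04, edgeR adjusted p 6.35e-07) and lower in T cell-like (log2 fold change -0.68, edgeR adjusted p 0.000101), macrophage-like (log2 fold change -0.68, edgeR adjusted p 7.82e-05) and dendritic cell-like cells (log2 fold change -1.15, edgeR adjusted p 8.20e-07). Ier3, a short-lived stress-induced protein linked to cell survival, had an order of its own. It was at 683 and 794 CPM with shNC and 1158 and 1267 with shSELP, in macrophage-like cells. In T cell-like cells it was at 30.2 and 46.9 CPM with shNC and 30.1 and 30.8 with shSELP. In NK cell-like cells it had 0 and 25.2 CPM with shNC and 88.6 and 3.57 with shSELP. The value of 0 in shNC 1 allows up to 26.9 CPM (3 counts). Among the 7 classes macrophage-like values were overlapped only by endothelial-like cells (1602 ± 593 CPM). They lay above those of tumor-like (456 ± 69.4 CPM) and microglia-like cells (381 ± 52.2 CPM). Ier3 was called higher in macrophage-like (log2 fold change 3.54, standard error 0.14, edgeR adjusted p 1.10e-19, the same direction in 4 of 4 libraries), microglia-like (log2 fold change 1.77, edgeR adjusted p 1.41e-10) and tumor-like cells (log2 fold change 1.48, edgeR adjusted p 2.77e-09) and lower in T cell-like (log2 fold change -2.62, edgeR adjusted p 2.27e-11), NK cell-like (log2 fold change -3.33, edgeR adjusted p 4.71e-09) and dendritic cell-like cells (log2 fold change -0.84, edgeR adjusted p 0.00515). The dendritic cell-like call of Ier3 was lost without shNC 2 (adjusted p 0.0752).

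**Figure D1:**
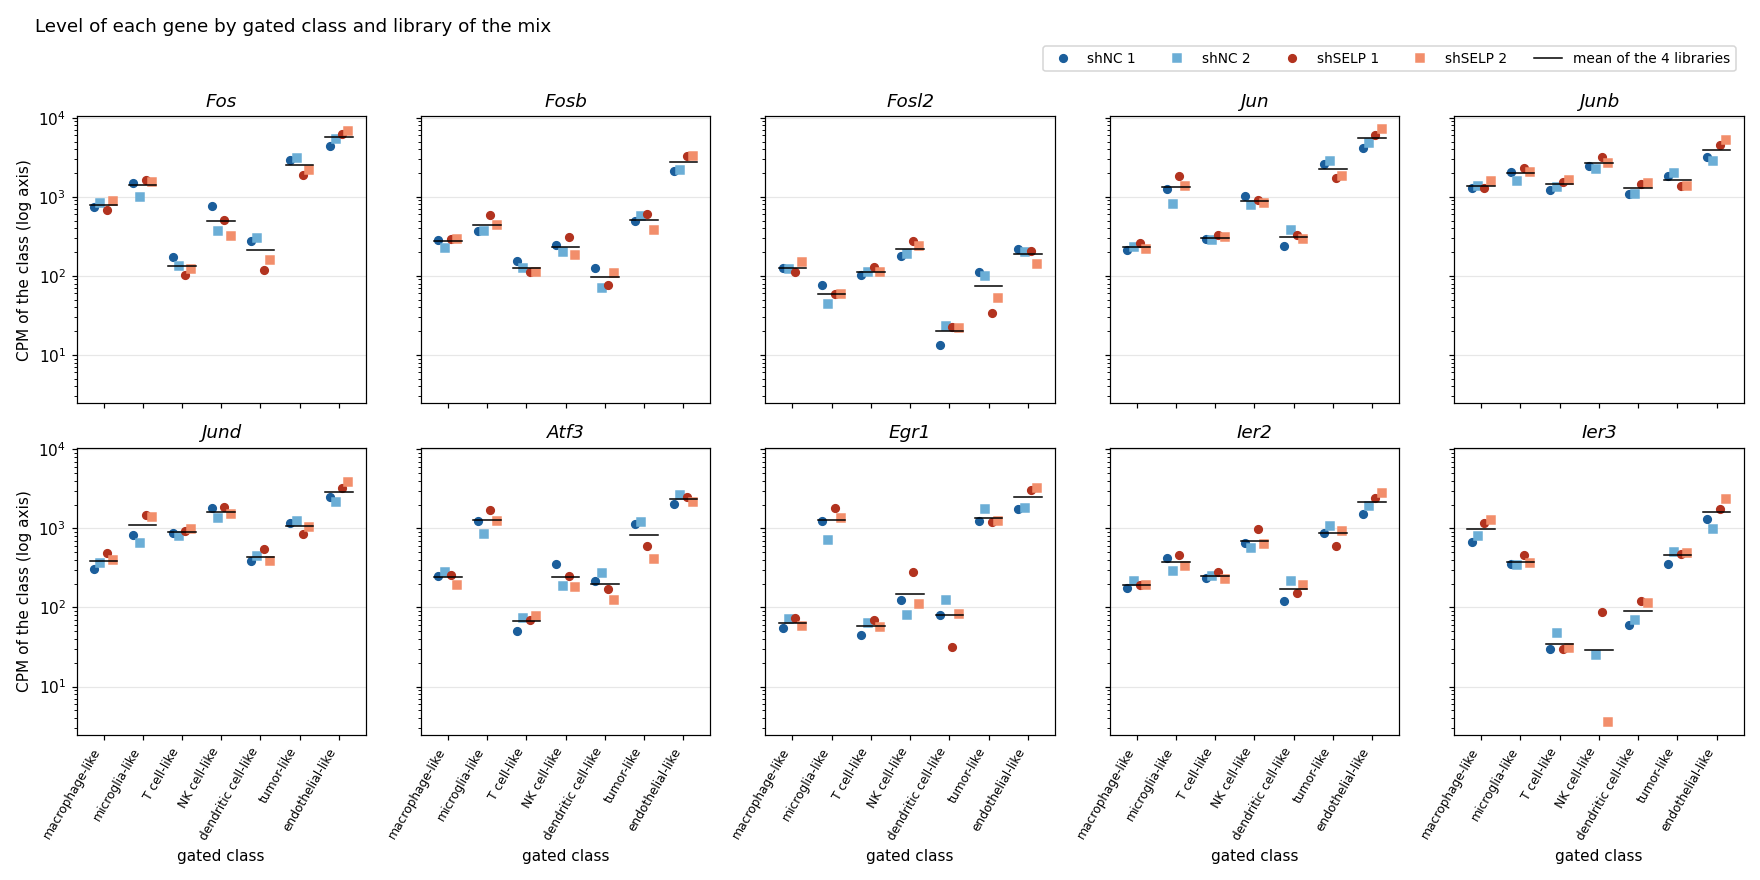
Level of each of the 10 genes in CPM (log axis) by gated class, with a point for each library of the mix and a line at the mean of the 4 libraries. Of the 6 tested classes and the endothelial-like class, endothelial-like cells have the highest mean for 9 of the 10 genes. The 0 of Ier3 in NK cell-like cells of shNC 1 is not drawn on the log axis.

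Counted over the list, edgeR called 8 of 10 (8 higher, 0 lower) in microglia-like cells, where 51% of all genes were called, and 8 of 10 (7 higher, 1 lower) in tumor-like cells, where 65.9% of all genes were called. It called 9 of 10 (1 higher, 8 lower) in T cell-like cells, where 53.2% of all genes were called, and 10 of 10 (0 higher, 10 lower) in dendritic cell-like cells, where 37% of all genes were called. It called 8 of 10 (4 higher, 4 lower) in macrophage-like cells, where 55.2% of all genes were called, and 8 of 10 (5 higher, 3 lower) in NK cell-like cells, where 29.6% of all genes were called. The shares of all genes called were large, so these counts describe the classes more than they set the list apart. The medians of the 10 log2 fold changes were 1.37 in microglia-like and 1.24 in tumor-like cells, beside 0.03 and 0.06 over all genes. They were -1.24 in T cell-like and -1.15 in dendritic cell-like cells, beside 0.08 and -0.09. In macrophage-like and NK cell-like cells they were -0.01 and 0.17, beside 0.04 and -0.14, with members on both sides of 0. Of the 51 member contrasts called among 60, 47 had the direction of the fold change in 4 of 4 libraries. Without TMM scaling the median over all genes moved to -0.30 in the macrophage-like, -0.14 in the microglia-like and 0.47 in the tumor-like contrast. The genes called higher and lower then split 2097 to 4014 in macrophage-like cells, against 3184 to 2132 with it. In tumor-like cells they split 5017 to 1926, against 3505 to 2847, and in microglia-like cells 2438 to 2673, against 2953 to 1963. Without scaling all 6 counts stayed within 1 of those above, and Junb in tumor-like cells was the called member whose sign changed with it. Without shSELP 2 edgeR called 5 of 10 in NK cell-like cells, where 19.8% of all genes were called, and without the other libraries 6 to 8.

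Pairs of related classes were also compared directly, a contrast chosen after the levels were seen. Microglia-like against macrophage-like cells differed in 10 of 10 members (8 higher, 2 lower), where 41% of all genes were called. The largest differences were those of Egr1 (log2 fold change 4.17, edgeR adjusted p 4.39e-15), Jun (log2 fold change 2.35, edgeR adjusted p 6.96e-12) and Atf3 (log2 fold change 2.25, edgeR adjusted p 3.50e-09). Fosl2 (log2 fold change -1.27, edgeR adjusted p 1.42e-05) and Ier3 (log2 fold change -1.48, edgeR adjusted p 3.98e-07) were the members higher in macrophage-like cells. Without shSELP 1 edgeR called 7 of 10, where 32.2% of all genes were called, and Fos, Fosb and Junb were not called (adjusted p 0.0667, 0.0871 and 0.304). Junb was also not called without shNC 1 or shSELP 2 (adjusted p 0.137 and 0.0516). NK cell-like against T cell-like cells differed in 9 of 10 members, all higher in NK cell-like cells, where 15.4% of genes were called. Fos (log2 fold change 1.77, edgeR adjusted p 6.42e-07), Atf3 (log2 fold change 1.70, edgeR adjusted p 9.56e-05) and Jun (log2 fold change 1.51, edgeR adjusted p 6.37e-07) differed most, and Ier3 was not called (log2 fold change -0.59, edgeR adjusted p 0.436, 3 of 4 libraries). Egr1 was not called without shNC 1 (adjusted p 0.0609), nor Fosl2 without shSELP 2 (adjusted p 0.0697). In endothelial-like cells all 10 members were called higher than in the other 6 classes, where 56.4% of genes were called, from Fosl2 (log2 fold change 0.83, edgeR adjusted p 0.000505) to Egr1 (log2 fold change 3.21, standard error 0.16, edgeR adjusted p 4.17e-18, the same direction in 4 of 4 libraries). The median of the 10 was 2.67, beside -0.05 over all genes.

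The classes too small to test were pooled over libraries. In 114 mural-like cells Fos was at 7589.9 CPM and Jun at 7109 CPM, above the pooled endothelial-like values of 6151 and 6067. Junb and Jund were also higher there, Fosb and Egr1 had overlapping Poisson intervals, and Atf3 (1246 against 2402 CPM), Ier2 (1141 against 2426), Ier3 (485 against 1790.1) and Fosl2 (132 against 192) were lower. In 31 fibroblast-like cells Fos was at 4156 CPM and in 60 oligodendrocyte-like cells at 3698 CPM. In 106 B cell-like cells it was at 279.6 CPM. Among these small classes Fos was thus lower in B cell-like than in mural-like, fibroblast-like and oligodendrocyte-like cells. Low Fos was not confined to lymphoid classes, as dendritic cell-like cells were at 216 CPM when pooled. In 60 neutrophil-like cells Ier3 was at 1270 CPM (95% Poisson interval 1098 to 1461), while Fosb was at 45.4 CPM, with 7 UMIs. Pooled values weight the libraries by their cells, and 75 of the mural-like cells came from shSELP 1.

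To set what classes share beside what sets them apart, the sum of squares of log2(CPM + 1) over 6 classes and 4 libraries was split for each gene. A shift of a whole library in every class falls in the part between libraries. The median member had 92.1% of its sum of squares between classes, 1.77% between libraries and 6.62% in the remainder. Over 2831 other genes whose mean reached 50 CPM the medians were 85.2%, 2.53% and 10.9%. The share between classes was highest for Jun, at 95.8%, and lowest for Junb, at 77.4%, and Ier3, at 82.7%. The share between libraries reached 4.77% for Ier3 and 3.85% for Junb, and was 0.116% for Fosl2. With the endothelial-like class the members' medians were 95.3%, 0.628% and 4.02%. A part that all classes of all libraries shared equally would be the gene's mean level, which the split does not see.

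No library was high in the members in every class. In microglia-like cells shSELP 1 lay above the class mean for 10 of 10 members, by 0.36 on the log2 scale on average, and shNC 2 lay below it for 10 of 10, at -0.45. In tumor-like cells the order was another: shNC 2 lay above the class mean for 10 of 10 members, by 0.35, and shSELP 1 below it for 8 of 10, at -0.29. The same 2 libraries thus changed places between these classes. In endothelial-like cells shSELP 1 lay above the mean for 10 of 10 and shSELP 2 for 8 of 10. In NK cell-like cells shSELP 1 was above it for 10 of 10, by a median of 0.31 and a mean of 0.62, the mean raised by Ier3 (0 and 25.2 CPM with shNC and 88.6 and 3.57 with shSELP). In T cell-like cells the mean deviations stayed between -0.08 and 0.04. Over the other genes the median deviation of a library in a class lay between -0.06 and 0.08. A median over many genes does not give the spread of other sets of 10, so how unusual the members were was not tested.

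Over all kept cells of a library, without regard to class, Egr1 was at 365 and 409 CPM with shNC and 814 and 281 with shSELP. Fosb was at 328 and 281 CPM with shNC and 702 and 335 with shSELP. The library shSELP 1 was highest for 8 of the 10 members, and shSELP 2 for Fosl2 and Ier3. For Egr1 the ratio of shSELP 1 to the mean of the other 3 libraries was 2.32, and 1.76 when endothelial-like and mural-like cells were left out. For Fosb the ratio went from 2.23 to 1.46, for Jun from 1.87 to 1.26 and for Fos from 1.43 to 0.995. The ratios of these 4 genes were thus smaller without these cells. Of the 10 members the highest library changed for Fos, to shNC 1, and for Ier2, to shNC 2. For Ier2 the ratio went from 1.53 to 1.05.

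The classes that held the UMIs of a gene differed between libraries in the same way. Tumor-like cells held 61.5% and 52.9% with shNC and 5.65% and 9.05% with shSELP of the Egr1 UMIs. Endothelial-like cells held 2.24% and 3.35% with shNC and 32.4% and 19.9% with shSELP of them. Microglia-like cells held 7.46% and 6.35% with shNC and 26.2% and 23.4% with shSELP. Tumor-like cells thus held the most Egr1 UMIs of these 3 classes in the shNC libraries and the fewest in the shSELP libraries. For Ier3 the macrophage-like cells held 59.5% and 56.5% with shNC and 44.5% and 73.4% with shSELP, the largest share in all 4 libraries. Over all genes macrophage-like cells held 38.0% and 34.5% with shNC and 28.1% and 47.1% with shSELP of the UMIs.

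**Figure D2:**
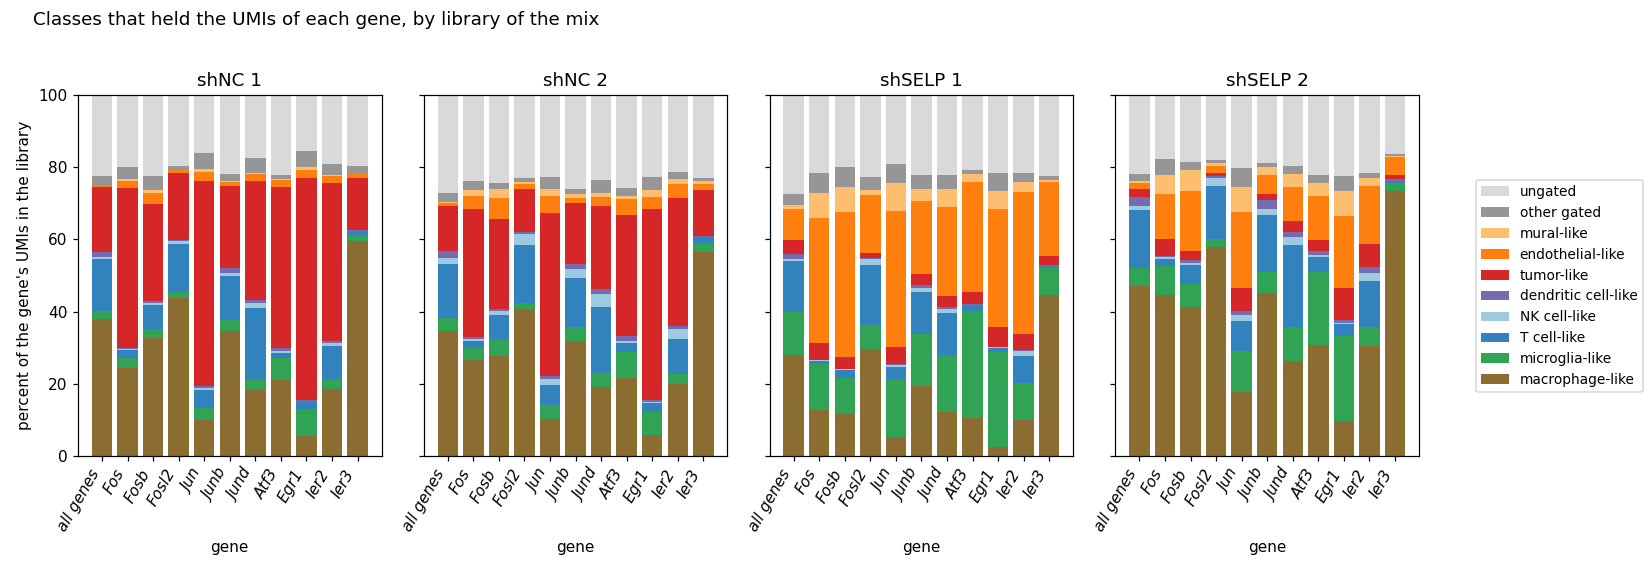
Percent of the UMIs of each gene, and of all genes, that came from cells of each gated class, in each library of the mix. Tumor-like cells held 44.3% of the Fos UMIs in shNC 1 and 4.73% in shSELP 1, where endothelial-like cells held 34.6%.

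The shSELP libraries were compared with the shNC libraries within each class by the edgeR quasi-likelihood test, with 2 libraries per group. An exact permutation test over 2 and 2 libraries cannot give a two-sided p under 0.333, so the p-values rest on the spread that edgeR pools over genes. In macrophage-like cells edgeR called 1 of 10 members, where 0.851% of 10576 genes were called, and 2 of 10 had an unadjusted p under 0.05, as did 13% of genes. DESeq2 called 1 of them and 1.08% of genes. The called member was Ier3, at 683 and 794 CPM with shNC and 1158 and 1267 with shSELP, and no shSELP value overlapped a shNC value. Ier3 was higher in both shSELP libraries (log2 fold change 0.78, standard error 0.10, edgeR adjusted p 0.0116), and DESeq2 gave an adjusted p of 2.92e-07. It was called without each of the 4 libraries in turn, with log2 fold changes from 0.71 without shNC 1 to 0.87 without shNC 2 and 0.86 without shSELP 1. With cells thinned to 2000 UMIs it was 0.57 and not called (adjusted p 0.0767). The 8 macrophage markers, led by Lyz2, summed to 11533 and 13959 CPM with shNC and 16032 and 19090 with shSELP in the same cells, and the median UMIs per cell were 10649 and 9528 with shNC and 9376 and 15478 with shSELP, so the markers rose with Ier3 and their part in its difference was not tested. The 8 neutrophil markers, led by Mxd1, summed to 255 and 572 CPM with shNC and 221 and 238 with shSELP. Jund had the next smallest p and was at 306 and 366 CPM with shNC and 484 and 393 with shSELP, without overlap, but was not called (log2 fold change 0.45, standard error 0.12, edgeR adjusted p 0.137). The genes called in macrophage-like cells split 41 higher to 49 lower, and 36 to 76 without TMM scaling.

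In microglia-like cells edgeR called 0 of 10 members, where 0.0415% of 7222 genes were called, and 4 of 10 had an unadjusted p under 0.05, as did 9.35% of genes. DESeq2 called 1 of them and 0.0969% of genes. Jund was at 831 and 661 CPM with shNC and 1486 and 1399 with shSELP, and both shSELP values lay above both shNC values (log2 fold change 0.91, standard error 0.17, edgeR adjusted p 0.128). DESeq2 called it (adjusted p 0.00783), and edgeR did without shNC 1 (adjusted p 0.00577) but not without shSELP 1 (log2 fold change 0.89, adjusted p 0.15). Egr1 was at 1239 and 707 CPM with shNC and 1796 and 1356 with shSELP. The shNC 2 value was the lowest and the shSELP 1 value the highest, and the difference (log2 fold change 0.65, standard error 0.24, edgeR adjusted p 0.428) was 0.29 without shNC 2, and 1.11 and called (adjusted p 0.00367) without shNC 1. Without shNC 1 edgeR called 3 of 10 members, where 0.974% of all genes were called, and without each other library 0. The 8 microglia markers, led by Sparc, summed to 3369.8 and 3235 CPM with shNC and 4959 and 3091 with shSELP, highest in shSELP 1, and the dendritic cell markers to 121 and 82.0 CPM with shNC and 196 and 143 with shSELP. The neutrophil markers summed to 223 and 181 CPM with shNC and 146 and 164 with shSELP. The tumor markers summed to 81.5 and 54.3 CPM with shNC and 44.2 and 51.0 with shSELP. The oligodendrocyte markers summed to 65.6 and 84.4 CPM with shNC and 89.9 and 98.8 with shSELP. The part of all these markers in the differences was not tested.

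In tumor-like cells edgeR called 0 of 10 members, where 0.115% of 9558 genes were called, and 5 of 10 had an unadjusted p under 0.05, as did 14.3% of genes. DESeq2 called 2 of them and 0.387% of genes. Atf3 was at 1136 and 1204 CPM with shNC and 596 and 412 with shSELP. Fosl2 was at 113 and 99.6 CPM with shNC and 34.4 and 53.1 with shSELP. For both genes the shSELP values lay below the shNC values, and 9 of the 10 members had a negative log2 fold change, with and without TMM scaling. Fosb, among the 9, turned positive without shSELP 2 (0.17) and with the stricter gate (0.08). Atf3 (log2 fold change -1.23, standard error 0.21, edgeR adjusted p 0.0737) and Fosl2 (log2 fold change -1.33, standard error 0.25, edgeR adjusted p 0.0888) missed the threshold by edgeR. DESeq2 called Atf3 (adjusted p 0.000259) and Fosl2 (adjusted p 0.0353). Fos was at 2904 and 3078 CPM with shNC and 1867 and 2178 with shSELP, lower in both shSELP libraries (log2 fold change -0.59, standard error 0.18, edgeR adjusted p 0.208). Jun was at 2632 and 2852 CPM with shNC and 1724 and 1808 with shSELP, also lower in both (log2 fold change -0.66, standard error 0.17, edgeR adjusted p 0.173). Without shNC 1 or without shNC 2 edgeR called 4 of 10, where 1.55% and 7.29% of all genes were called, and without shSELP 1 or shSELP 2 it called 0, with Atf3 at -1.56 and -0.99. The median UMIs per tumor-like cell were 16206 and 16432 with shNC and 12802 and 7627 with shSELP, and in cells thinned to 2000 UMIs Atf3 was at -1.38 and Fosl2 at -1.98. The 8 tumor markers, led by Prph, summed to 3606 and 2562 CPM with shNC and 2099 and 2128 with shSELP, and their part in the difference was not tested. The 8 macrophage markers, led by Fn1, summed to 511 and 519.8 CPM with shNC and 530.3 and 487 with shSELP in the same cells. The dendritic cell markers summed to 151 and 126 CPM with shNC and 97.1 and 87.3 with shSELP, the mural markers to 14.2 and 9.67 CPM with shNC and 44.8 and 22.8 with shSELP and the NK cell markers to 2.44 and 3.22 CPM with shNC and 4.48 and 89.1 with shSELP. The median over the 10 members was -0.45, beside -0.02 over all genes.

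In T cell-like cells edgeR called 0 of 10 members, where 0.0516% of 9693 genes were called, and 3 of 10 had an unadjusted p under 0.05, as did 9.03% of genes. DESeq2 called 0 of them and 0.134% of genes. Fos was at 174 and 135 CPM with shNC and 103 and 122 with shSELP, lower in both shSELP libraries (log2 fold change -0.44, standard error 0.14, edgeR adjusted p 0.391). Fosb was at 153 and 124 CPM with shNC and 111 and 111 with shSELP (log2 fold change -0.31, standard error 0.13, edgeR adjusted p 0.479). Without shNC 2, where 2.81% of all genes were called, edgeR called these 2 members (adjusted p 0.00526 and 0.0484), and without each other library it called 0. In NK cell-like cells edgeR called 0 of 9 members, where 0.335% of 2690 genes were called, and 1 of 9 had an unadjusted p under 0.05, as did 6.25% of genes. DESeq2 called 0 of them and 0% of genes. Ier3 did not pass the filter on low counts in this class. Egr1 was at 126 and 80.8 CPM with shNC and 283 and 111 with shSELP, high in shSELP 1 alone (log2 fold change 0.83, standard error 0.36, edgeR adjusted p 0.707). Without shSELP 2 it was called (adjusted p 0.0407), as were 1.19% of all genes, and without shSELP 1 its log2 fold change was 0.17. In dendritic cell-like cells edgeR called 0 of 9 members, where 0% of 4465 genes were called, and 3 of 9 had an unadjusted p under 0.05, as did 7.21% of genes. DESeq2 called 0 of them and 0% of genes. Fosl2 did not pass the filter there. Fos was at 273 and 305 CPM with shNC and 118 and 158 with shSELP, lower in both shSELP libraries (log2 fold change -1.07, standard error 0.26, edgeR adjusted p 0.538), and in thinned cells the difference was -0.07. The 8 dendritic cell markers, led by Ccr7, summed to 3368 and 4998 CPM with shNC and 5679 and 6044 with shSELP in these cells. The neutrophil markers, led by Mxd1, summed to 162 and 323 CPM with shNC and 448 and 554 with shSELP. The part of these markers in the Fos difference was not tested.

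In the added endothelial-like class edgeR called 1 of 10 members, where 1.78% of 4938 genes were called, and 8 of 10 had an unadjusted p under 0.05, as did 16.2% of genes. DESeq2 called 1 of them and 0.911% of genes. Egr1 was at 1773 and 1798 CPM with shNC and 3090 and 3281 with shSELP, higher in both shSELP libraries (log2 fold change 0.82, standard error 0.17, edgeR adjusted p 0.0327). Junb was at 3233 and 2858 CPM with shNC and 4462 and 5246 with shSELP, also higher in both (log2 fold change 0.66, standard error 0.16, edgeR adjusted p 0.0716). The shNC values rest on 19 and 29 cells. Without shSELP 1 edgeR called 0 members (Egr1 log2 fold change 0.89, adjusted p 0.104), without shSELP 2 also 0, without shNC 1 6 and without shNC 2 8. Of all genes 5.24% were called without shNC 1 and 7.08% without shNC 2. Without the 5% of cells with the highest doublet scores Egr1 was at 0.61 and not called. The 8 endothelial markers, led by Cldn5, summed to 9897 and 13433 CPM with shNC and 15154 and 16168 with shSELP, lowest in shNC 1. In the same cells the 8 dendritic cell markers, led by Fscn1, summed to 189.6 and 169 CPM with shNC and 33.1 and 43.7 with shSELP, and the 8 mural markers, led by Rgs5, to 152 and 11.6 CPM with shNC and 265 and 244 with shSELP. The part of these in the Egr1 difference was not tested.

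**Figure D3:**
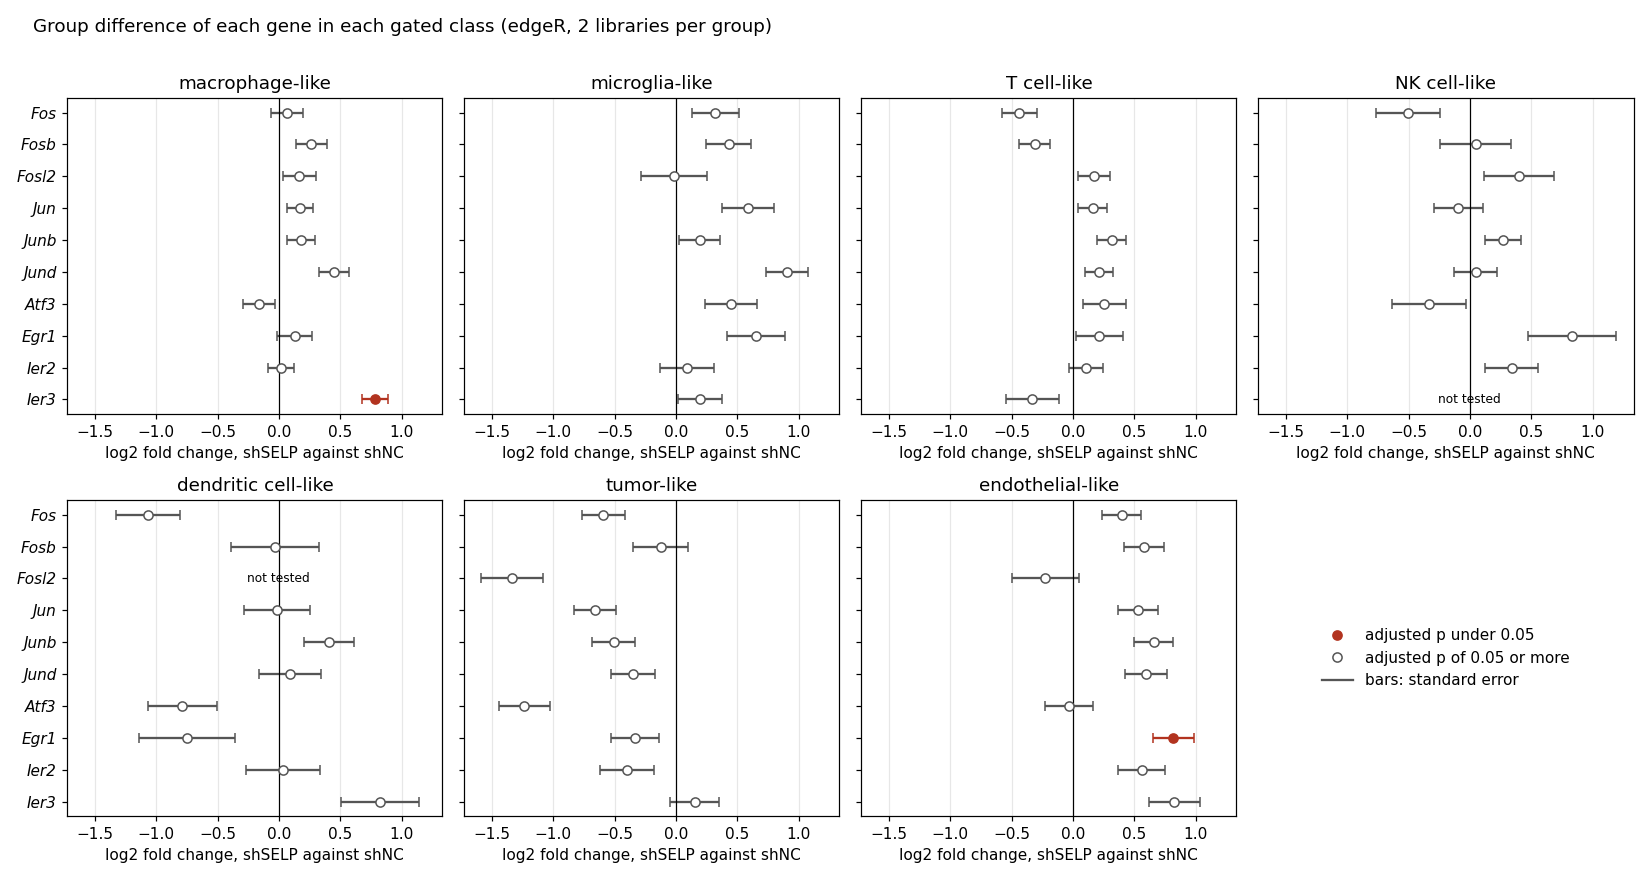
Log2 fold change of shSELP against shNC for each gene in each gated class (edgeR, 2 libraries per group), with bars of 1 standard error and filled points where the adjusted p is under 0.05. Of the members tested, Ier3 in macrophage-like cells and Egr1 in endothelial-like cells are filled, and 9 of 10 tumor-like points lie below 0.

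Whether the classes differed in their response was tested with all class-by-group terms of the joint fit together. edgeR called 3 of 10 members, where 0.446% of 9632 genes were called, and 8 of 10 had an unadjusted p under 0.05, as did 11.3% of genes. The called members were Atf3 (class log2 fold changes of the joint fit spread over 1.80, edgeR adjusted p 0.0162), Fosl2 (spread 1.77, edgeR adjusted p 0.0446) and Jund (spread 1.36, edgeR adjusted p 0.0446). In the separate fit of each class, the log2 fold changes of Atf3 ran from -1.23 in tumor-like to 0.45 in microglia-like cells. Fosl2 ran from -1.33 in tumor-like to 0.40 in NK cell-like cells, and Jund from -0.35 in tumor-like to 0.91 in microglia-like cells. In all 3 genes tumor-like cells were at the low end. Jun (edgeR adjusted p 0.0813) and Fos (edgeR adjusted p 0.0932) were not called, and Ier3, whose macrophage-like difference was called, was not either (edgeR adjusted p 0.366), so its difference is not shown to be particular to macrophage-like cells. Without shSELP 1 edgeR called 0 of 10 members for this term, and without shSELP 2 also 0 (Atf3 adjusted p 0.0991 and 0.129). Without shNC 1 it called 4 and without shNC 2 2, where 0.67% and 2.02% of all genes were called. Jund was not called without any of the 4 libraries in turn (adjusted p from 0.0559 to 0.428). Fosl2 kept its call in the absence of shNC 2 alone (adjusted p from 0.0559 to 0.579 without the others).

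To compare cells of unlike depth, cells were thinned at random to 2000 UMIs each. The median number of the 10 members with a UMI was then 9 in endothelial-like cells, 7 in microglia-like and tumor-like cells and 5 in NK cell-like cells. It was 4 in macrophage-like cells and 3 in T cell-like and dendritic cell-like cells. At least 5 members were read in 94.5% of endothelial-like, 85.1% of tumor-like and 77.6% of microglia-like cells. The share was 43.6% in macrophage-like, 21.9% in T cell-like and 16% in dendritic cell-like cells. Ier3 had a UMI in most macrophage-like cells (68.0% thinned and 91.8% unthinned, median depth 11355 UMIs) and in few NK cell-like cells (0.562% thinned and 4.57% unthinned, median depth 3604 UMIs). Egr1 had a UMI in most tumor-like cells (72.3% thinned and 90.1% unthinned, median depth 15466 UMIs) and in fewer macrophage-like cells (9.32% thinned and 32.9% unthinned, median depth 11355 UMIs). A cell that holds the message can be read with 0 UMIs, and free RNA in the droplets can add UMIs, so the shares are those of cells read with a UMI.

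The share of cells with a member was also compared between thinned cells with and without a UMI of Fos. In tumor-like cells Egr1 had a UMI in 77.0% of the cells with Fos and 39.1% of the others. In microglia-like cells it had a UMI in 81.7% of the cells with Fos and 44.1% of the others. In endothelial-like cells it had a UMI in 85.4% of the cells with Fos and 31.03% of the others. In macrophage-like cells the shares for Egr1 were near each other, at 10.1% of the cells with Fos and 7.93% of the others, while those for Fosb were 38.2% of the cells with Fos and 25.9% of the others. For Jun the shares were 50.8% of the cells with Fos and 34.4% of the others in T cell-like cells and 34% of the cells with Fos and 26.7% of the others in macrophage-like cells. The share was higher among cells with Fos in 4 of 4 libraries for Egr1 in tumor-like, microglia-like and endothelial-like cells, for Jun in T cell-like and macrophage-like cells and for Fosb in macrophage-like cells. Other pairs did not have this order. In dendritic cell-like cells Jun had a UMI in 31.8% of the cells with Fos and 40.5% of the others. In NK cell-like cells the shares were 37.3% and 40% for Fosl2 and 69.9% and 69.5% for Ier2. The difference between classes was not tested.

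Across the 24 sums of 6 classes and 4 libraries, log2(CPM + 1) of Fos and Fosb had a Pearson correlation of 0.92, and that of Jund and Ier3 -0.44, the highest and the lowest of the member pairs. Each member was also set against the mean of the other 9. The correlation was 0.88 for Jun, 0.87 for Fosb and 0.83 for Egr1, and 0.21 for Fosl2 and 0.12 for Ier3. Junb and Jund lay between, both at 0.57. Fosl2 and Ier3 thus had the lowest of these correlations, but the other 8 did not share a single order of classes. Fos had a correlation of 0.26 with Junb, 0.23 with Jund and 0.54 with Ier3, while Fosl2 had 0.58 with Junb and 0.47 with Jund. The sums of a class share its cells' identity and those of a library its depth, so these values are descriptions. Among 2753 genes outside the fixed lists whose mean reached 50 CPM, those most like the mean of the 10 members were Tsc22d2 (r = 0.89), Klf7 (0.88), Csnk1e (0.86), Rock2 (0.86) and Ddit3 (0.85). Jmjd1c (0.84), Pabpc1 (0.84), Map1lc3a (0.82), Lmna (0.81) and Man1a2 (0.81) followed.

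Other genes of the pathway were read from 5 further lists in the same group comparisons. Of the other immediate early genes edgeR called 2 of 19 in macrophage-like cells, where 0.851% of all genes were called. Both were higher in shSELP. Klf4 was at 179 and 204 CPM with shNC and 343 and 348 with shSELP, without overlap (log2 fold change 0.92, standard error 0.10, edgeR adjusted p 0.00818). Nr4a2 was at 145 and 118 CPM with shNC and 201 and 232 with shSELP, also without overlap (log2 fold change 0.79, standard error 0.13, edgeR adjusted p 0.0347). Of the other basic leucine zipper genes edgeR called 1 of 13 in these cells, beside the same share of all genes. It was Batf3, which was lower in both shSELP libraries (log2 fold change -1.31, standard error 0.20, edgeR adjusted p 0.0218). Without shSELP 2 the calls of Nr4a2 and Batf3 were lost (edgeR adjusted p 0.0927 and 0.11), while Klf4 was called without each library in turn. In thinned cells Nr4a2 and Batf3 were not called either (edgeR adjusted p 0.183 and 0.119), nor was Batf3 with the stricter gate (edgeR adjusted p 0.0702). The 8 macrophage markers summed to 11533 and 13959 CPM with shNC and 16032 and 19090 with shSELP in these cells. Their part in the differences of Klf4, Nr4a2 and Batf3 was not tested. In tumor-like cells edgeR called 0 of 18 other immediate early genes, of which 9 had an unadjusted p under 0.05, and 0 of 10 negative regulators of the response, of which 7 had one. Over all genes in tumor-like cells 0.115% were called and 14.3% had an unadjusted p under 0.05. The 10 negative regulators all had a negative log2 fold change, with and without TMM scaling, and a median of -0.80. Zfp36, which binds and destabilizes short-lived messages, was at 529 and 593 CPM with shNC and 229 and 283 with shSELP, lower in both shSELP libraries (log2 fold change -1.16, standard error 0.19, edgeR adjusted p 0.0555). Dusp1, a phosphatase of MAP kinases, was at 766 and 923 CPM with shNC and 396 and 505 with shSELP (log2 fold change -0.93, standard error 0.19, edgeR adjusted p 0.118). The kinases and factors upstream of AP-1 had 0 of 15 called in tumor-like and 0 of 15 in macrophage-like cells, with 0 and 0 at an unadjusted p under 0.05, beside 14.3% and 13% of all genes.

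Heat-shock chaperones, which also respond to handling of cells, were read in the same comparisons. edgeR called 0 of 7 in tumor-like cells and 0 of 10 in macrophage-like cells, where 0.115% and 0.851% of all genes were called. At an unadjusted p under 0.05 were 1 and 6, beside 14.3% and 13% of all genes. The 6 in macrophage-like cells, where Ier3 was called, all had a positive log2 fold change, with and without TMM scaling, and the median of the chaperones there was 0.29 on the log2 scale, beside 0.17 for the members. The part of handling in either was not tested. In T cell-like cells it called 1 of 10, where 0.0516% of genes were called. This was Hspb1, at 1.53 and 0.891 CPM with shNC and 17.3 and 22.8 with shSELP, higher in both shSELP libraries (log2 fold change 4.05, standard error 0.38, edgeR adjusted p 0.00261). It was called without each library in turn, and the call was lost with replicate number as a block (edgeR adjusted p 0.0667). In the T cell-like cells the mural markers summed to 1.53 and 1.19 CPM with shNC and 7.43 and 4.36 with shSELP. The astrocyte markers summed to 0.917 and 1.49 CPM with shNC and 7.01 and 3.64 with shSELP. The tumor markers went the other way, at 38.8 and 42.8 CPM with shNC and 25.2 and 34.2 with shSELP. The endothelial markers overlapped between groups, at 51.0 and 65.1 CPM with shNC and 60.6 and 91.4 with shSELP. The part of these markers in the Hspb1 difference was not tested. In NK cell-like cells edgeR called 1 of 9, where 0.335% of genes were called. It was Hspa1a, at 403 and 95.9 CPM with shNC and 8.86 and 50.05 with shSELP, lower in both (log2 fold change -2.50, standard error 0.49, edgeR adjusted p 0.00205). That call was lost without shNC 1 (edgeR adjusted p 0.53), without TMM scaling (edgeR adjusted p 0.147) and with DESeq2 (adjusted p 0.999), and also with the looser gate, in thinned cells and with the block. In the NK cell-like cells the 8 NK cell markers, led by Gzma, summed to 14300 and 12554 CPM with shNC and 10275 and 9823 with shSELP. Their part in the Hspa1a difference was not tested. In endothelial-like cells edgeR called 2 of 10, where 1.78% of genes were called. They were Hspa1a (log2 fold change 1.83, standard error 0.38, edgeR adjusted p 0.0332) and Hspa1b (log2 fold change 2.58, standard error 0.56, edgeR adjusted p 0.0447), both higher in both shSELP libraries, and neither was called without shSELP 1 (edgeR adjusted p 0.146 and 0.102), with the stricter gate or without the cells of high doublet score. The median log2 fold change of the chaperones was 0.10 in tumor-like cells, where that of the 10 members was -0.45.

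The CD11b positive cells, dated day 21 in the labels, had 1 library per group, so no test was made, and intervals are exact Poisson intervals that cover counting error only. Each library held 2862 cells, with 12628177 UMIs in shNC and 11445676 in shSELP, and 1733 and 1978 macrophage-like and 114 and 85 microglia-like cells. In macrophage-like cells Ier3 was at 574 CPM in shNC (95% interval 557 to 591) and 543 CPM in shSELP (527 to 559). The ratio of shSELP to shNC was 0.946 (0.907 to 0.987), so the higher level in shSELP that the mix showed was not seen here. Atf3 was at 643 CPM in shNC (95% interval 625 to 661) and 302 CPM in shSELP (289.6 to 314), the lowest ratio of the 10, at 0.469 (0.447 to 0.493). Jun was at 431 CPM in shNC (95% interval 417 to 446) and 234 CPM in shSELP (224 to 245), a ratio of 0.544 (0.513 to 0.575). Egr1 was at 38.7 CPM in shNC (95% interval 34.5 to 43.3) and 78.1 CPM in shSELP (72.0 to 84.5), a ratio of 2.02 (1.75 to 2.32), the highest of the 10. Fos (0.687, interval 0.666 to 0.709), Fosb (0.680, interval 0.641 to 0.722), Junb (0.715, interval 0.695 to 0.736) and Jund (0.692, interval 0.655 to 0.730) were lower in shSELP, and Fosl2 (1.10, interval 1.0001 to 1.20) and Ier2 (1.01, interval 0.948 to 1.08) were close to equal.

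Of the 10 members with at least 100 UMIs in CD11b positive macrophage-like cells, 3 were past 1.5-fold, a threshold chosen after the data were seen, as were 12.5% of 7572 genes. The median log2 ratio of the members was -0.51, beside 0.10 over all genes. With TMM scaling 6 members were past it, Fos, Fosb, Jun, Jund, Egr1 and Atf3, and Egr1 was the only one of them that was higher, while 10.6% of genes were past it. In microglia-like cells 3 of 9 members, Jund, Egr1 and Atf3, were past 1.5-fold, where 10.7% of 1427 genes were, and the median was -0.34, beside -0.00. Egr1 was at 361 CPM in shNC (95% interval 317 to 409.6) and 569 CPM in shSELP (503 to 641), a ratio of 1.58 (1.32 to 1.88), while Jund had a ratio of 0.663 (0.556 to 0.788) and Atf3 of 0.588 (0.510 to 0.677). The latter 2 had positive log2 fold changes in the microglia-like cells of the mix (neither called by edgeR), and that direction was not seen here. With TMM scaling the members past it were Fos, Jund and Atf3, and in thinned cells Fos, Fosb, Jund and Atf3, all lower, beside 10.8% and 13.8% of genes. Egr1, the 1 higher member, then had a ratio of 1.49 (1.25 to 1.78) and 1.31 (0.976 to 1.75). With a single library per group, group and library cannot be told apart. In 7 of the 8 shSELP entries of this library the description names the negative control, against their titles, source names and genotypes. The title was followed, and the directions of the ratios above rest on that label.

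Promoters are shown because AP-1 and cyclic AMP response elements in the members' own promoters are a known part of their induction. Of the 10 members, 8 were matched in the RefSeq promoter table (build GRCm38.p6), and Egr1 and Ier2 were not in it. Motifs were searched on both strands in the 250 bases before the start of 32851 promoters. The AP-1 site TGANTCA was in 6.75% of all promoters and in 0 of the 8, and TGACGTCA was in 1.55% and in 0 of the 8. TGANNTCA was in 11.9% of promoters and in those of Jun and Jund. TGACG, the core that TGACGTCA contains, was in 17.8% and in those of Fos, Fosb, Junb and Atf3. The CArG box was in 1.47% of promoters and in 0 of the 8. Elements further upstream lie outside the 250 bases searched, so a count of 0 does not show that a gene lacks the element. The promoters of Fos (chr12:85473735-85473854, plus strand, bases -155 to -36 from the start) and Jun (chr4:95052223-95052342, minus strand, bases -120 to -1), the leading partners of the dimer, are given 5′ to 3′ in lower case, with TGACG in Fos and TGANNTCA in Jun in capitals. The windows are those of the RefSeq starts, which lie ahead of the GENCODE gene for Jund and inside it for Atf3 and Fosl2. A match of letters is a description and no site of binding was measured.
Fos: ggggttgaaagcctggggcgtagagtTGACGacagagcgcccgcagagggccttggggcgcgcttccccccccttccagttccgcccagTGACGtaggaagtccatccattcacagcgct
Jun: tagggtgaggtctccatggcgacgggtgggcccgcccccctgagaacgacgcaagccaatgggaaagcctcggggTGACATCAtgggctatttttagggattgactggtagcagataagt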

How the data were processed

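Single-cell RNA was measured in 4 libraries of mixed cells and 2 of CD11b positive cells. The authors deposited raw counts of UMIs per gene and cell, made with Cell Ranger against mm10. Depth was 17398121 to 25589350 UMIs per library in the mix and 11445676 to 12628177 in the CD11b positive cells, which sets the counting error of each sum. Cells were kept from 500 genes up and to 10% of mitochondrial UMIs and gated on 8 markers per class in 13 classes. Doublets were kept beyond what the gate removes. UMIs were summed per class and library.

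Sums were filtered with filterByExpr, scaled by TMM and tested with the edgeR 4.0.16 quasi-likelihood F test (R 4.3.3), with Benjamini-Hochberg adjustment over all genes tested and a threshold of 0.05 on the adjusted p. Class contrasts and the class-by-group term came from 1 joint fit with library as a block. DESeq2 1.42.0 was the other tool. Sums, thinned cells and Scrublet scores were computed with Python 3.11.15, numpy 2.4.6, scipy 1.17.1, pandas 2.3.3 and scanpy 1.11.5, and plots with matplotlib 3.10.9. The fits were tested on simulated data.

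Alternatives were DESeq2, no filter, no TMM scaling (TMM scaling for the CD11b positive cells), a stricter and a looser gate, all deposited cells, cells thinned to 2000 UMIs, removal of the top 5% of Scrublet scores, a replicate block and leaving out each library. The endothelial-like class, the direct contrasts of 2 classes, the alternatives of the two-way split and the 1.5-fold count were added after the data were seen. The members and lists were chosen with earlier results of these data known. Named genes were all 10 members, every gene of another list called in a group comparison, the 2 smallest unadjusted p-values of a list, and the 10 genes most like the members. Of the genes with the smallest p-values, those of the negative regulators in tumor-like cells are printed.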

Additional observations from a re-analysis of the deposited data

Results flagged for a closer look

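For 5 genes of the fixed lists the difference between shSELP and shNC was not the same in the 6 tested classes, by the edgeR test of all class-by-group terms. The test called 43 of 9632 genes (0.446%). The 5 are Atf3 (edgeR adjusted p 0.0162), Fosl2 (0.0446) and Jund (0.0446) among the members, and Zfp36 (0.0369) and Zfp36l2 (0.0208) among the negative regulators. For Atf3 the log2 fold change was -1.23 in tumor-like, -0.79 in dendritic cell-like and 0.45 in microglia-like cells. For Fosl2 it was -1.33 in tumor-like and 0.40 in NK cell-like cells. For Jund it was -0.35 in tumor-like and 0.91 in microglia-like cells, where it was higher in both shSELP libraries. In CD11b positive microglia-like cells the ratios of shSELP to shNC were 0.663 (0.556 to 0.788) for Jund and 0.588 (0.510 to 0.677) for Atf3, the opposite direction to the mix. Those ratios come from a single library per group, dated day 21 in the labels. Their direction rests on the title of the shSELP library, which most descriptions of its entries contradict.

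Zfp36 was lower in both shSELP libraries in tumor-like cells (-1.16) and had a log2 fold change of 0.63 in NK cell-like cells. Zfp36l2 was at 159.6 and 137 CPM with shNC and 22.6 and 55.9 with shSELP in dendritic cell-like cells (-1.78), and at 0.34 on the log2 scale in microglia-like cells. In the dendritic cell-like cells the dendritic cell markers summed to 3368 and 4998 CPM with shNC and 5679 and 6044 with shSELP. The neutrophil markers there summed to 162 and 323 CPM with shNC and 448 and 554 with shSELP. The part of these markers in the Zfp36l2 difference was not tested. None of the 5 was called for this term without shSELP 1 or with the stricter gate, and without shSELP 2 only Zfp36l2 was. For Zfp36 the edgeR adjusted p was 0.487 without shSELP 1, 0.106 without shSELP 2 and 0.0504 without TMM scaling. For Zfp36l2 it was 0.102 without shNC 1 and 0.268 without shSELP 1. Without TMM scaling Fosl2 and Jund were not called either. Tumor-like cells numbered 51 and 50 with shSELP, and their median depth moved with the group. The part of depth and cell number in these differences was not tested.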

How the results depend on the processing

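Counts of members called in a comparison stayed within 1.5 times the reported count in 115 results under the alternatives and moved further in 19. Among single genes that were followed, 444 results kept direction and side of the threshold (or, with no test, their interval), 25 lost a call, 11 gained one, 17 moved and 1 changed sign. That 1 was Junb in tumor-like cells against the other classes, at 0.00929 without TMM scaling. Of 70 differences of a member between groups, 28 had both signs over these and the left-out libraries, among them Fosb in tumor-like and Fosl2 and Egr1 in macrophage-like cells, and 0 of these were called in any of them.

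Beside each count below stands the share of all genes called in the same fit. With no filter on low counts edgeR called 6 members between groups in endothelial-like (1.99%), 2 in macrophage-like (3.5%), 3 in microglia-like (0.673%) and 4 in tumor-like cells (2.26%). DESeq2 called 1 in microglia-like (0.0969%) and 2 in tumor-like cells (0.387%). Thinned cells gave 5 in endothelial-like (4.7%) and 0 in macrophage-like cells (0.0939%). In endothelial-like cells the looser gate gave 4 (4.43%), the stricter gate 0 (0.552%) and leaving out high doublet scores 0 (0.405%). For the class-by-group term, no TMM scaling gave 1 (0.55%), the stricter gate 0 (0.0119%) and adding the endothelial-like class 5 (0.974%). In CD11b positive macrophage-like cells 6 members were past 1.5-fold with TMM scaling (10.6%) and 5 in thinned cells (13.8%). The cause was not tested.

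With replicate number as a block edgeR called 3 members in endothelial-like (2.81%), 3 in microglia-like (2.66%) and 1 in tumor-like cells (0.188%). Nothing in the labels pairs the replicates, and the correlation between the number 1 libraries after group means were removed lay between -0.0219 and 0.125 by class in this block.

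Leaving out each library gave 0 to 8 members called between groups in endothelial-like, 0 to 4 in tumor-like, 0 to 3 in microglia-like, 0 to 2 in T cell-like and 0 to 1 in NK cell-like cells. It gave 0 to 4 for the class-by-group term and 5 to 8 for NK cell-like cells against the other classes. The shares of all genes called reached 7.08% in endothelial-like, 7.29% in tumor-like, 0.974% in microglia-like and 2.81% in T cell-like cells. A group left with 1 library is assumed to vary like the other. Among single genes that were followed, 213 results kept direction and call, 26 lost a call and 9 gained one. In the microglia-like against macrophage-like contrast the median over all genes went from -0.01 to 0.14 without TMM scaling, and the split of called genes from 1963 higher and 1990 lower to 2533 and 1486.

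Depth limits Selp and the classes under 50 cells in a library, and 2 libraries per group limit every group comparison. Classes rest on markers, ungated cells were left out of them, and free RNA was not removed. No library was prepared without enzymes.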
